A study of Homo sapiens with 6 samples.

Results

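The 4 ID genes ID1, ID2, ID3 and ID4 and the 4 SMAD feedback genes SMAD6, SMAD7, BAMBI and SKIL were followed in RNA sequencing libraries of cells labelled A549, a line derived from a human lung adenocarcinoma. The 8 genes were taken from 19876 gene symbols by name. The ID genes drew attention because they stood lower after treatment, so their difference between the groups is given as a description without a test. SMAD6, SMAD7, BAMBI and SKIL were added for their role in the pathway, with earlier results of these data known. Cells of wild-type genotype were cultured in DMEM with 10% serum and given rhTR11B (3 libraries) or PBS as the negative control (3 libraries). TR11B is a short name of TNFRSF11B, or osteoprotegerin, a secreted decoy receptor of the TNF receptor family. What rhTR11B stands for, its dose and its time are not in the labels. They call the libraries biological replicates without saying whether separate cultures were used, so a p-value here sets a difference against a spread among libraries that may be technical only.

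Bone morphogenetic proteins (BMPs) and TGF-beta bind paired serine/threonine kinase receptors that phosphorylate SMAD proteins, which enter the nucleus with SMAD4. The ID genes are classical direct targets of the BMP branch. Their products are helix-loop-helix proteins without a DNA-binding basic region, which pair with E proteins such as TCF3 and keep these from binding DNA. The same signal induces its own inhibitors, among them the inhibitory SMADs SMAD6 and SMAD7, the receptor-like BAMBI that lacks a kinase domain and the nuclear SMAD repressor SKIL (SnoN).

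The libraries held 36315751 to 36992958 counts with rhTR11B and 37203313 to 38148838 counts with PBS. All 8 genes passed the low-count filter that left 13567 genes to test. The mitochondrially encoded genes took 7.88% to 10.4% of the counts with rhTR11B and 6.63% to 7.71% with PBS, and 79 ribosomal protein genes took 3.58% to 4.24% with rhTR11B and 4.64% to 4.78% with PBS. The library of rhTR11B replicate 3 stood apart, with the highest mitochondrial and the lowest ribosomal protein share and a score of 25.7 on the first principal component against 2.66 and 8.63 for the other rhTR11B libraries. Of 5 epithelial markers, the keratins KRT8 and KRT18 were abundant, with means of 907 and 669 CPM (counts scaled to library size) with rhTR11B and 924 and 692 CPM with PBS. EPCAM, CDH1 and KRT19 had 0 to 10 counts in any library. CDKN2A and MTAP, both lost by homozygous deletion in the A549 line as commonly described, had 1593 to 2030 and 1568 to 1724 counts with rhTR11B and 2036 to 2310 and 1719 to 2013 counts with PBS. These values go against the cell line label, and the cells are called here by their label. CDKN2A and MTAP were picked for this check after their values were seen. Summed over the lists, fibroblast markers had 0.466 to 1.05 CPM with rhTR11B and 0.182 to 0.394 CPM with PBS, endothelial markers 0.192 to 0.241 CPM with rhTR11B and 0.131 to 0.416 CPM with PBS, and blood cell markers 3.59 to 4.71 CPM with rhTR11B and 2.75 to 3.96 CPM with PBS. Most of the last sum was CD68 (3.54 CPM over all libraries), which is also expressed outside blood cells. The part of these markers in the results was not tested. TNFRSF11B itself had 7.04 ± 0.761 CPM with rhTR11B and 6.22 ± 1.31 CPM with PBS (SD, n = 3 each; edgeR adjusted p = 0.479).

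The 4 ID genes are paralogs, and the stretch of coding sequence that they share most is shown because reads of one could only be mistaken for another where the letters are the same. It lies within the part that encodes the helix-loop-helix domain. The sequences are 90 bases of the GENCODE 29 transcripts on GRCh38, each inside 1 coding exon, written 5′ to 3′ on the coding strand. Capitals mark the 54 bases that are identical in all 4 genes.
ID1 (chr20:31605618-31605707, plus strand): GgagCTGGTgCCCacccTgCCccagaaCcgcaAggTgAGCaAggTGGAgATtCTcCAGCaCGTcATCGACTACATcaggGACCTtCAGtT
ID2 (chr2:8682306-8682395, plus strand): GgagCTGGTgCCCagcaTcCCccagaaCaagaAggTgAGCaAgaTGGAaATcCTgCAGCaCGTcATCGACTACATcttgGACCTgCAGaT
ID3 (chr1:23559182-23559271, minus strand): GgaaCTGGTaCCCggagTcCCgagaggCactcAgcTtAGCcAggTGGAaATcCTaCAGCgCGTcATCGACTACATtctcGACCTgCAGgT
ID4 (chr6:19837982-19838071, plus strand): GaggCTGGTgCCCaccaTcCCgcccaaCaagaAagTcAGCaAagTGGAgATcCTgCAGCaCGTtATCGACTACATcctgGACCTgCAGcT
In this stretch ID2 matched ID1 and ID4 at 84.4% of bases each, and ID1 and ID3 matched at 66.7%. Over the whole aligned coding sequences the pairs were 60.8% to 64.8% identical. No stretch of 50 bases of the longest coding transcript of ID1, ID3 or ID4 occurred in a transcript of another gene, and for ID2 14 of 1992 such stretches did (SKIL 53 of 7133, and 0 for SMAD6, SMAD7 and BAMBI). ID2 was the only one of the 8 genes whose exons overlapped those of another gene, the antisense ID2-AS1. The labels do not state a strand setting, so reads of both cannot be told apart there. ID2-AS1 itself was listed with 3 to 10 counts with rhTR11B and 6 to 7 with PBS, far below the counts of ID2.

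The genes lie on 8 chromosomes (GRCh38.p14 in the RefSeq table): ID1 at chr20:31605289-31606510, ID2 at chr2:8682056-8684461, ID3 at chr1:23557926-23559501 and ID4 at chr6:19837370-19842197. SMAD6 lies at chr15:66702236-66782849, SMAD7 at chr18:48919853-48950965, BAMBI at chr10:28677521-28682932 and SKIL at chr3:170357715-170396849. The 250 bases before the annotated start of the 4 ID genes, which stood lower together, and of SMAD6, which did not, are given below from RefSeq. They are written 5′ to 3′ on the gene's strand, with capitals for GTCT on either strand, the short box that SMAD3 and SMAD4 bind.
ID1 (chr20:31605039-31605288, plus strand): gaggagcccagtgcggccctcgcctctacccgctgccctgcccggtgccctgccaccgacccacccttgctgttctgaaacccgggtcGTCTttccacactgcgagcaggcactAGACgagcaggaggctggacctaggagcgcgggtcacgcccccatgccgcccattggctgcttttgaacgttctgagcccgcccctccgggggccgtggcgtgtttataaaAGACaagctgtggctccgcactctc
ID2 (chr2:8681806-8682055, plus strand): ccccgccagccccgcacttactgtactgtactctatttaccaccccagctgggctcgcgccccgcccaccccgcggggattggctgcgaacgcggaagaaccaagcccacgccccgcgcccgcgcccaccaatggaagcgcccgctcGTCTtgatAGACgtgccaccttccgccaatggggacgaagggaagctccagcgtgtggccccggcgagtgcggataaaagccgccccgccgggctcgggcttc
ID3 (chr1:23559502-23559751, minus strand): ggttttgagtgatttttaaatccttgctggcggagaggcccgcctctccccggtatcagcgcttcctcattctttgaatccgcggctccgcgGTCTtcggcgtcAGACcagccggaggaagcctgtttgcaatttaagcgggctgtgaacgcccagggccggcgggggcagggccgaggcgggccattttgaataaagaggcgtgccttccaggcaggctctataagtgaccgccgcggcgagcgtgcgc
ID4 (chr6:19837120-19837369, plus strand): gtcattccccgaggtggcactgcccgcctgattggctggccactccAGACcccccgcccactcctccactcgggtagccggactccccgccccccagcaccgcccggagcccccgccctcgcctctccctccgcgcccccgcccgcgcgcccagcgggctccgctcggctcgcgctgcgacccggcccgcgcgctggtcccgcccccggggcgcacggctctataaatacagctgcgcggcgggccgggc
SMAD6 (chr15:66701986-66702235, plus strand): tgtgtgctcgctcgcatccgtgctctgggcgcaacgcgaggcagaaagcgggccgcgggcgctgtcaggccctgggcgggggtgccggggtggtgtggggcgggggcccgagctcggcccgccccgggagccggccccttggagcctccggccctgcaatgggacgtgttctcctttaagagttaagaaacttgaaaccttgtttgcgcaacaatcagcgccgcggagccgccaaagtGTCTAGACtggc
Each of the 8 windows held at least 1 GTCT or its reverse complement, as did 77.6% of 27305 promoter windows of the same length. ID1 had 3, ID2 and ID3 had 2 each and ID4 had 1. SMAD7 and BAMBI had 4 each and SKIL 3. SMAD6 had 2, which abutted as a palindrome ending close to the start site, and SMAD7 also held an abutting pair. The core of the BMP response element, GGCGCC, its own reverse complement, had no match in the windows of the ID genes, SMAD6 or SMAD7, 3 in BAMBI and 1 in SKIL, and it was found in 16.1% of all windows. The TATA box TATAAA, sought on either strand, had 2 matches in ID1 and 1 in ID4, and it was found in 11.1% of all windows. The E-box CANNTG, the motif of the E proteins that ID proteins pair with, occurred once each in ID2, ID4 and SMAD7, and in 62.2% of all windows. A match is a description of letters in these windows, not of bound sites. Sequence outside the 250 bases was not searched, so a window without a match does not show that the gene lacks the element. GC content was 62.0% to 78.8% in the ID windows, 68.0% in SMAD6, 48.0% in SMAD7, 81.2% in BAMBI and 78.4% in SKIL. The median over all windows was 58.0%.

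The ID genes differed widely in level. On the FPKM scale, which divides counts by gene length and library total, ID1 averaged 117 ± 1.98 FPKM with rhTR11B and 130 ± 2.12 FPKM with PBS (SD, n = 3 each). Its mean over 6 libraries lay above that of 97.2% of the tested genes. ID3 followed with 65.0 ± 4.92 FPKM with rhTR11B and 78.9 ± 4.57 FPKM with PBS. ID2, near the middle of all tested genes, had 5.20 ± 0.687 FPKM with rhTR11B and 7.52 ± 0.174 FPKM with PBS. ID4 had 0.525 ± 0.104 FPKM with rhTR11B and 0.923 ± 0.0688 FPKM with PBS. The order ID1, ID3, ID2, ID4 was the same in every library, and no neighbours in it overlapped. Of the feedback genes, SMAD7 and SKIL had like levels, with 5.48 ± 0.0253 and 5.37 ± 0.332 FPKM with rhTR11B and 5.90 ± 0.297 and 5.65 ± 0.599 FPKM with PBS, and these did not differ beyond their spread. SMAD6 had 2.67 ± 0.0375 FPKM with rhTR11B and 2.45 ± 0.250 FPKM with PBS, and BAMBI had 0.923 ± 0.197 FPKM with rhTR11B and 0.991 ± 0.0662 FPKM with PBS.

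**Figure D1:**
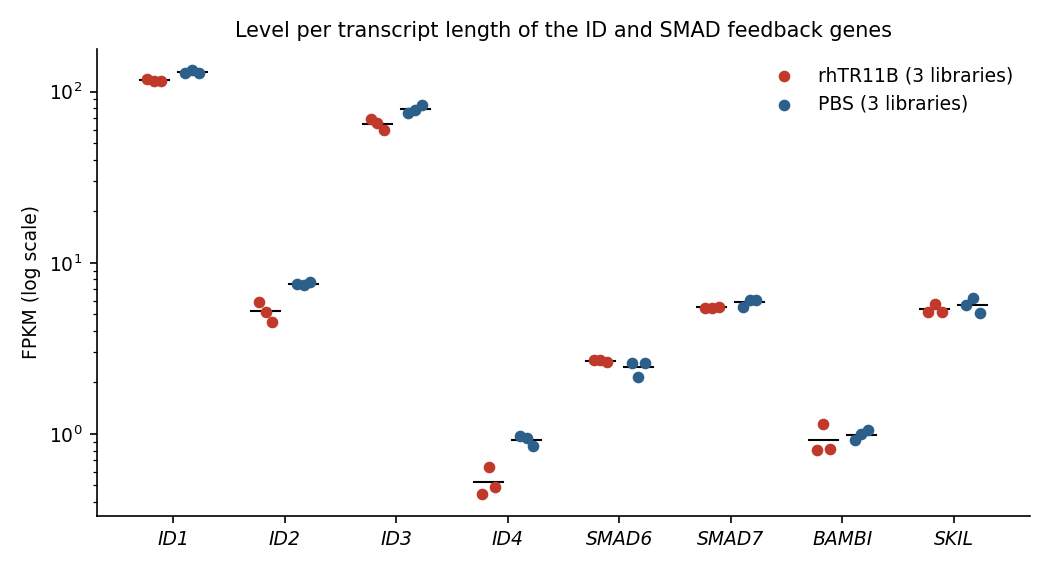
FPKM on a log scale for the 8 genes in each of 3 rhTR11B libraries (red) and 3 PBS libraries (blue), with a black line at each group's mean. ID1 and ID3 stand far above the other genes, and ID4 and BAMBI lie around or below 1 FPKM.

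All 4 ID genes stood lower with rhTR11B, with fitted folds of 0.909 for ID1, 0.834 for ID3, 0.699 for ID2 and 0.576 for ID4 (rhTR11B over PBS). In bulk RNA, fewer cells that express a gene and less of its RNA per cell cannot be told apart. For each ID gene, every rhTR11B library lay below every PBS library, as for 14.0% of all tested genes. In the fit over all genes with edgeR's quasi-likelihood test and Benjamini-Hochberg adjustment, 3 of the 4 were among the 92 lower calls, which make up 0.678% of the genes tested. This contrast chose the ID genes, so neither count bears on them as a result. Their median log2 fold change was -0.39, and that of all tested genes was 0.00.

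ID2, an inhibitor of differentiation in many cell types, had 281, 249 and 213 counts in rhTR11B replicates 1 to 3 and 361, 364 and 382 counts in PBS replicates 1 to 3. That is 7.71, 6.68 and 5.98 CPM with rhTR11B and 9.65, 9.46 and 10.0 CPM with PBS. The PBS libraries lay close together, while the rhTR11B libraries spread over 61.5% to 79.4% of the PBS mean. Counting error alone was 5.12% for the highest ID2 count, above the coefficient of variation of 2.98% among the PBS libraries. The PBS libraries thus lay closer than their counts can resolve. The log2 fold change of ID2 was -0.52 (SE 0.12).

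ID4, best known from neural and mammary precursor cells, had 63, 92 and 69 counts with rhTR11B and 141, 139 and 125 with PBS. In CPM, ID4 had 1.73, 2.47 and 1.94 with rhTR11B and 3.77, 3.61 and 3.28 with PBS, so the groups stood well apart at a low level. Its log2 fold change of -0.80 (SE 0.19) was the largest in size of the 8. Counting error alone was 12.6% for its smallest count.

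ID3, which is often induced together with ID1, had 66.7, 61.9 and 57.9 CPM with rhTR11B and 70.9, 73.0 and 79.8 CPM with PBS. The highest rhTR11B library and the lowest PBS library of ID3 differed by less than 1 SD of either group (4.37 and 4.69 CPM). Its log2 fold change was -0.26 (SE 0.07).

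ID1, the most abundant of the family, had 147, 141 and 144 CPM with rhTR11B and 157, 160 and 158 CPM with PBS. With a log2 fold change of -0.14 (SE 0.05) it had the smallest difference of the 4, and it was not among the calls. Its libraries varied by 2.26% (coefficient of variation) with rhTR11B and 1.07% with PBS, against medians of 7.44% and 5.86% over all tested genes.

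The make-up of the family is given as a description, since it comes from the same values that chose the ID genes. Summed over the family, the libraries held 195, 188 and 181 FPKM with rhTR11B and 213, 219 and 222 FPKM with PBS. ID1 made up 61.1% to 64.1% of that sum with rhTR11B and 58.3% to 60.7% with PBS. ID2 made up 2.50% to 3.01% with rhTR11B and 3.37% to 3.51% with PBS, and ID4 0.227% to 0.342% with rhTR11B and 0.382% to 0.460% with PBS. ID3 made up 33.1% to 35.6% with rhTR11B and 35.3% to 37.9% with PBS. The ratio of ID1 to ID2 was 20.3 to 25.7 with rhTR11B and 16.8 to 18.0 with PBS.

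ID2 and ID3 were lowest in rhTR11B replicate 3, the library with the highest mitochondrial share, and ID1 and ID4 were lowest in other libraries. Without that library the log2 fold changes were -0.43 for ID2, -0.21 for ID3, -0.76 for ID4 and -0.14 for ID1. The part of the mitochondrial and ribosomal shares in these values was not tested. Gene length also differed among the 8. The lengths behind the FPKM values were 950 to 1299 bases for ID1, ID2 and ID3 and 3873 for ID4, against a median of 3981 for all tested genes. With offsets that remove each library's trend with gene length, ID1 had -0.10, ID2 -0.48, ID3 -0.21 and ID4 -0.81.

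**Figure D2:**
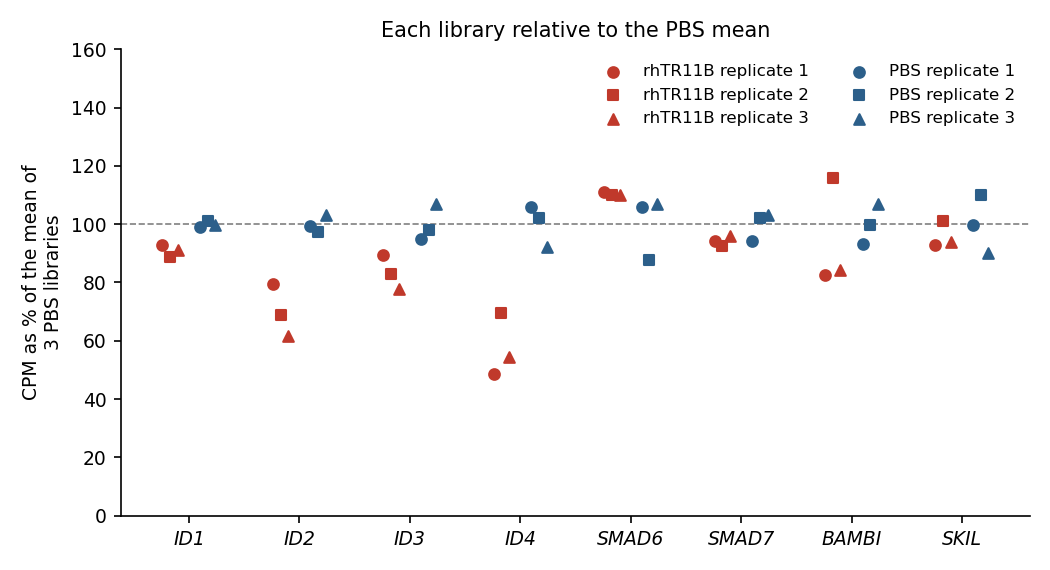
Level of each gene in each library, in CPM as a percentage of the mean of the 3 PBS libraries, with a dashed line at that mean, rhTR11B in red and PBS in blue, and a symbol per replicate number. The rhTR11B libraries lie at 48.6% to 92.9% of the PBS mean for the ID genes, and at 82.4% to 116% for the feedback genes, both ends being BAMBI.

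None of the 4 feedback genes passed edgeR's test over all genes, where 3.6% of genes did at an adjusted p under 0.05. At an unadjusted p under 0.05 edgeR gave 0 of the 4 as well, and DESeq2 called 0. Their median log2 fold change was -0.07. The intervals below are approximate 95% limits from the fitted fold change and its standard error, and they limit how large a difference these libraries leave room for.

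SMAD6, the inhibitory SMAD that acts mainly on the BMP branch, had 23.0, 22.7 and 22.7 CPM with rhTR11B and 21.8, 18.1 and 22.0 CPM with PBS. All rhTR11B libraries lay above all PBS libraries, as for 15.1% of tested genes, but 2 of the PBS libraries came within 1 CPM of them. The fitted fold was 1.10 (0.985 to 1.24; edgeR adjusted p = 0.311), and without PBS replicate 2, the lowest, the log2 fold change was 0.06 against 0.14 with all libraries.

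SMAD7, which blocks both branches at the receptors, had 20.4, 20.0 and 20.8 CPM with rhTR11B and 20.4, 22.2 and 22.4 CPM with PBS. The groups overlapped through PBS replicate 1. Its fold was 0.941 (0.848 to 1.04; edgeR adjusted p = 0.508), and the interval includes no difference.

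SKIL had 39.0, 42.7 and 39.5 CPM with rhTR11B and 41.9, 46.3 and 38.0 CPM with PBS. The libraries of the 2 groups were interleaved, with a fold of 0.960 (0.866 to 1.06; edgeR adjusted p = 0.682). BAMBI was low, with 50, 72 and 50 counts with rhTR11B and 58, 64 and 68 counts with PBS. Its interval was accordingly wide, with a fold of 0.942 (0.686 to 1.29; edgeR adjusted p = 0.859), and rhTR11B replicate 2 had the highest level of all 6 libraries. Its libraries varied by 20.0% (coefficient of variation) with rhTR11B and 7.03% with PBS, beside a counting error of 11.8% to 14.1%.

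**Figure D3:**
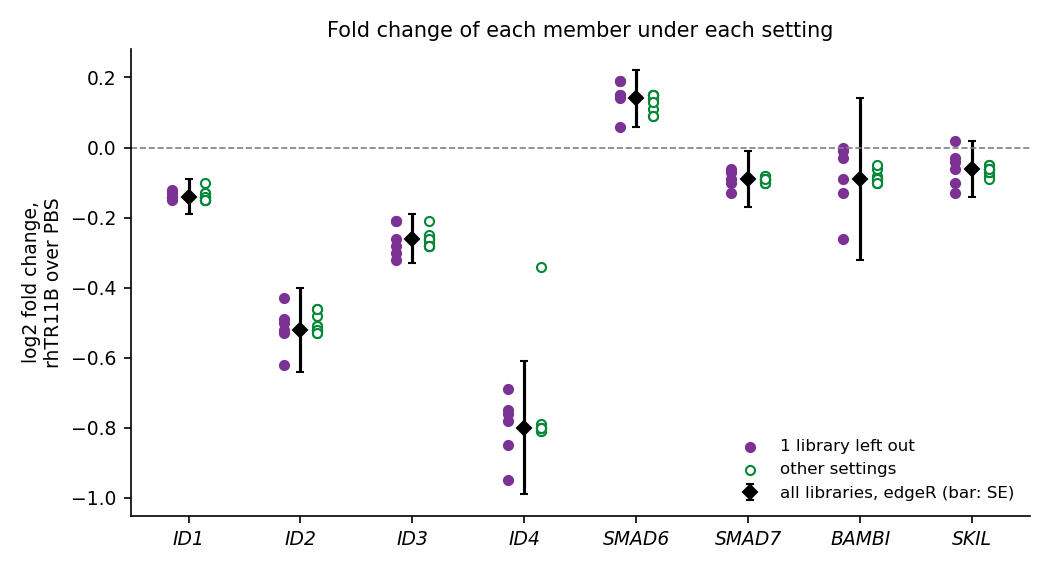
Log2 fold change (rhTR11B over PBS) of each gene with all libraries in edgeR (black diamond, bar of 1 SE), with 1 library left out (filled purple) and under the other settings (open green). The 4 ID genes stay below 0 throughout, SMAD6 stays above 0, and BAMBI and SKIL reach 0 or just above it when 1 library is left out.

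The surrounding pathway was described with 9 lists of 137 genes, of which 90 were tested. Of these 5 rose, or 5.56%, and 0 fell, by edgeR at an adjusted p under 0.05, against 2.92% higher and 0.678% lower calls over all genes. DESeq2 called 9 of them higher and 1 lower, or 11.1% against 8.16% of all tested genes. In edgeR 25 had an unadjusted p under 0.05, or 27.8% against 24.2% of all tested genes. The DESeq2 and unadjusted shares are near those of all genes, and the larger share of edgeR higher calls rests on 5 genes. The 5 that rose were FSTL3, NEO1, PMEPA1, LTBP2 and IER3, and none is an ID gene's partner or a BMP target in these lists.

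Among the ligands, 5 of 13 were abundant enough to test. BMP2, BMP6, BMP8A, BMP8B and GDF11 ranged from -0.38 to 0.34 in log2 fold change, and edgeR called 0 of them with 1 at an unadjusted p under 0.05. That 1 was GDF11 (log2 fold change 0.17, SE 0.07, edgeR adjusted p = 0.161). BMP6 had 2.58 ± 0.238 CPM with rhTR11B and 2.04 ± 0.917 CPM with PBS. BMP4 was listed but too low to test.

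Secreted antagonists bind these ligands outside the cell. FSTL3, a follistatin-like protein that binds activins and related ligands, rose to 25.2 ± 1.20 CPM with rhTR11B, against 19.2 ± 0.660 CPM with PBS (log2 fold change 0.40, SE 0.08, edgeR adjusted p = 0.0134). The BMP antagonist NOG (noggin) had 4.32 ± 0.564 CPM with rhTR11B and 3.50 ± 0.348 CPM with PBS and did not pass (adjusted p = 0.253 by edgeR). Neither did CRIM1 at 0.11 or TWSG1 at 0.13. All 5 tested antagonists had log2 fold changes above 0, as did 6788 of all 13567 tested genes.

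All 13 tested receptors and co-receptors had log2 fold changes above 0, as did 6788 of all 13567 tested genes. The receptors had a median of 0.21 and 1 of them passed, against 2.92% called higher over all genes. With gene length offsets 12 of the 13 were above 0, ACVR1B being the exception, and with the other scalings all 13 were. That 1 was NEO1 (neogenin), which binds repulsive guidance molecules that act as BMP co-receptors, with 43.6 ± 3.79 CPM with rhTR11B and 34.7 ± 0.882 CPM with PBS (edgeR adjusted p = 0.0234). The type II receptor TGFBR2 had 0.21 (adjusted p = 0.0590 by edgeR), the co-receptor ENG 0.27 (0.0637) and the activin receptor ACVR2B 0.28 (0.0773). Of these, TGFBR2 (0.0282) and ENG (0.0319) passed with the DESeq2 Wald test. Of the BMP receptors themselves, BMPR1A had 0.14, BMPR2 0.06 and ACVR1 0.26. In the 13, 8 had an unadjusted p under 0.05, against 24.2% of all tested genes.

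The SMADs that carry the signal had a median of -0.01. SMAD1, which acts in the BMP branch, had 30.5 ± 1.05 CPM with rhTR11B and 29.7 ± 1.73 CPM with PBS, and SMAD5 had 82.9 ± 4.89 CPM with rhTR11B and 87.4 ± 4.47 CPM with PBS. Both overlapped between the groups. SMAD2, of the TGF-beta branch, had 102 ± 8.17 CPM with rhTR11B and 119 ± 5.99 CPM with PBS and did not pass (log2 fold change -0.21, SE 0.07, edgeR adjusted p = 0.0684), though it passed with the DESeq2 Wald test (0.0375) and with gene length offsets (0.0354). SMAD4 had -0.04 and SMAD9 0.15.

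Of 16 tested SMAD co-regulators 1 rose, against 2.92% of all tested genes. PMEPA1, a membrane adaptor induced by TGF-beta that restrains the TGF-beta branch, had 25.1 ± 1.18 CPM with rhTR11B and 19.2 ± 1.95 CPM with PBS (log2 fold change 0.39, SE 0.08, edgeR adjusted p = 0.0231). The SKIL relative SKI had -0.11, the ubiquitin ligases SMURF1 and SMURF2 had 0.09 and -0.01, and STRAP, TGIF2 and LEMD3 had -0.19, -0.18 and 0.14. The other 15 did not pass.

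Of 13 other BMP targets, MSX1, GATA2, HEY2 and DLX2 were abundant enough to test, with log2 fold changes of -0.10, -0.09, 0.15 and 0.06. EdgeR called 0 of them, 0 had an unadjusted p under 0.05, and the largest standard error was 0.32. Among 13 tested TGF-beta targets, LTBP2, a matrix protein, rose to 31.5 ± 3.01 CPM with rhTR11B, against 22.9 ± 2.28 CPM with PBS. Its log2 fold change was 0.46 (SE 0.09, edgeR adjusted p = 0.0119). COL1A1 (0.62, edgeR adjusted p = 0.0511), TGFB1I1 (0.26, 0.0570) and TGFBI (0.28, 0.0868) did not pass, and neither did CCN2, a matricellular protein, at -0.25. With the DESeq2 Wald test COL1A1 (0.0205) and TGFB1I1 (0.0300) passed, and TGFB1I1 also passed with gene length offsets (0.0447).

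The helix-loop-helix partners of the ID proteins had 0 calls by edgeR and 0 at an unadjusted p under 0.05 among 7 tested. The E protein TCF3, which was abundant, had 301 ± 21.6 CPM with rhTR11B and 325 ± 7.62 CPM with PBS, and TCF12 had 66.2 ± 3.79 CPM with rhTR11B and 72.0 ± 2.44 CPM with PBS (log2 fold changes -0.11 and -0.12). HES6, BHLHA15 and HES1 had -0.08, -0.35 (SE 0.36) and 0.07. ID genes also belong to the early response to serum. Of 21 tested immediate-early genes, IER3 rose to 295 ± 18.5 CPM with rhTR11B, against 250 ± 16.1 CPM with PBS (edgeR adjusted p = 0.0474), and 20 did not pass. NR4A1 had 0.33 (adjusted p = 0.0821 by edgeR), DUSP1 -0.15, KLF10 -0.14, and EGR1 0.00. The list's median was 0.02.

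The 5 calls were lost in some fits with 1 library left out. FSTL3, PMEPA1 and LTBP2 did not pass without PBS replicate 2 or without PBS replicate 3, NEO1 did not pass when any 1 of the 3 PBS libraries was left out, and IER3 did not pass without any 1 of the PBS libraries or without rhTR11B replicate 2. Their adjusted p in these fits reached 0.115 for FSTL3, 0.165 for PMEPA1, 0.130 for LTBP2, 0.165 for NEO1 and 0.226 for IER3. The log2 fold changes in the fits that lost the call were 0.37 and 0.41 for FSTL3, 0.31 to 0.34 for NEO1, 0.33 and 0.36 for PMEPA1, 0.39 and 0.46 for LTBP2 and 0.19 to 0.29 for IER3. NEO1, PMEPA1, LTBP2 and IER3 were also not called by limma-trend on FPKM values with either pseudocount, and FSTL3 was not called by limma-trend without a filter. IER3 was further not called with library size in place of TMM scaling or with a mean of at least 5 CPM.

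**Figure D4:**
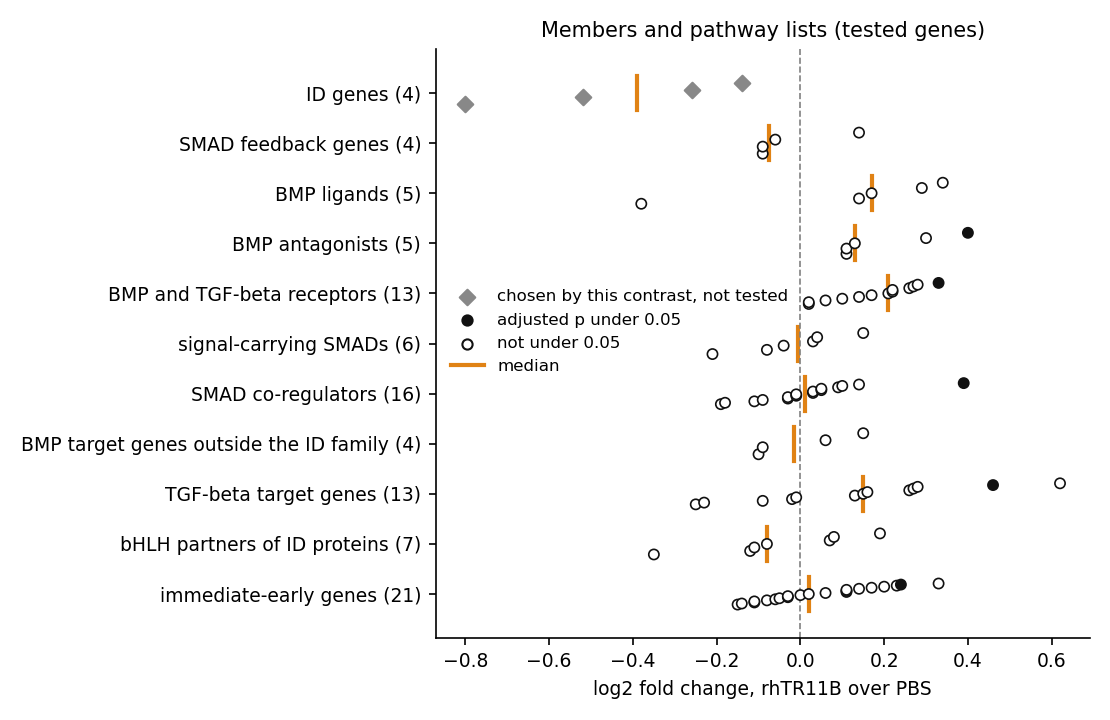
Log2 fold change (rhTR11B over PBS) of every tested gene of the ID family, the feedback genes and the 9 pathway lists, with the number tested in brackets, filled circles for genes with an adjusted p under 0.05 and an orange line at the median. The ID genes (grey diamonds) were chosen by this contrast. The ligand, antagonist, receptor and TGF-beta target lists have medians of 0.17, 0.13, 0.21 and 0.15, and the other lists lie near 0.

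The genes whose profile over the 6 libraries was most like that of each ID gene were sought among 11344 genes with a mean of at least 2 CPM. Likeness was the root mean square difference between the genes' log2 CPM values, each taken as its deviation from the gene's own mean. All 6 libraries enter, so the difference between the groups enters too. Nearest to ID2 were KCTD12, an auxiliary subunit of GABA-B receptors (0.08), UQCRHL (0.09) and riboflavin kinase RFK (0.10), against a deviation of 0.28 in ID2 itself. KCTD12 had 58.7 ± 4.50 CPM with rhTR11B and 79.7 ± 3.37 CPM with PBS. Nearest to ID4 were TYMSOS (0.11), DHRS4L2 (0.19) and BANP (0.20). For ID1 they were NDUFB10, KDM4A and RABEPK and for ID3 EIF5AL1, BRMS1 and ZNRD2, at 0.01 and 0.03 each. UQCRHL, EIF5AL1 and DHRS4L2 resemble other genes closely, and their reads may be shared with these. The family members took widely different ranks among the 11344 genes. The measure is not scaled, so a gene with larger or smaller deviations ranks far even where its direction is the same. The genes' own deviations were 0.07 in ID1, 0.28 in ID2, 0.15 in ID3 and 0.43 in ID4. By nearness to ID1, ID3 ranked 4700, ID2 9949 and ID4 11217. By nearness to ID2, ID3 ranked 61, ID1 1847 and ID4 4442. By nearness to ID3, ID1 ranked 1553, ID2 4158 and ID4 10688, and by nearness to ID4, ID2 ranked 20, ID3 449 and ID1 1878.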

How the data were processed

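Per the labels' protocols, TRIzol was used for RNA extraction and the VAHTS Universal V6 kit for the libraries. The authors deposited read counts and FPKM values per gene symbol, and the submitters' processing notes name the build GRCh38 and the tools HTSeq, HISAT, fastp, DESeq2 and R 3.2.0. The role of each tool, the annotation and any strand setting are not given in the sources used. The deposited FPKM values equal count over length and library total for 100% of values above 0 (relative tolerance 0.001), which gave the gene lengths. All 6 count columns and all 6 FPKM columns were used.

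The main comparison used edgeR 4.0.16 in R 4.3.3 on the counts: filterByExpr (minimum count 10), TMM scaling, group as the only term, the quasi-likelihood test and Benjamini-Hochberg adjustment over 13567 genes. The step was tested on simulated data. CPM values use the TMM-scaled totals, and standard errors (SE) of log2 fold changes were taken as their size over the root of the F statistic. Library totals leave a counting error of 1.27% to 14.1% for single values of the 8 genes, with ID4 and BAMBI the highest. Counts and the spread between libraries both set the precision, also for some other members. ID2 had a counting error of 5.12% to 6.85%, beside a coefficient of variation of 12.9% with rhTR11B and 2.98% with PBS. SMAD6 had a counting error of 3.44% to 3.79%, beside 0.812% with rhTR11B and 10.8% with PBS. Chi-square per degree of freedom between libraries of 1 group was 5.32 to 26.2, well above sampling noise, so each counts as a separate library.

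The members and gene lists were chosen with earlier results of these data known. The text names all 8 members, each list's called genes and the 4 with the smallest p, the 3 nearest profiles of each ID gene and TNFRSF11B, while further list genes were picked with their values known. Alternatives were other scalings (DESeq2 size factors, library size, no mitochondrial genes, length offsets), DESeq2 1.42.0 (Wald test), limma 3.58.1 as voom on counts and as limma-trend on log2 FPKM values with a pseudocount of 1 or 0.1, other low-value filters, the replicate number as a block, and each library left out.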

Additional observations from a re-analysis of the deposited data

How the results depend on the processing

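The log2 fold changes of ID1, ID2 and ID3 stayed below 0 in all 18 alternatives and that of ID4 in the 15 that tested it, and SMAD6 stayed above 0 in all 18. With 1 library left out they ran from -0.15 to -0.12 for ID1, from -0.62 to -0.43 for ID2, from -0.32 to -0.21 for ID3 and from -0.95 to -0.69 for ID4. The groups of the ID genes and of SMAD6 do not overlap, so a kept direction is no sign of stability. Of the 6 fits with 1 library left out, 3 called ID2, 1 called ID3 and 3 called ID4, and ID3 was not called with gene length offsets. These fits reuse the values that chose the ID genes, so their calls do not bear on the ID genes as a result. On log2(FPKM + 1) ID4 had -0.34, because the pseudocount exceeds its level. Direction turned, at values that passed no test, for BAMBI (0.00 without rhTR11B replicate 1, range over left-out libraries -0.26 to 0.00), SKIL (0.02 without PBS replicate 2, range -0.13 to 0.02), BMP8B (-0.14 without rhTR11B replicate 3, range -0.14 to 0.36), SMAD4 (0.01 without rhTR11B replicate 3 and 0.01 without PBS replicate 2, range -0.08 to 0.01), HEY2 (-0.04 without rhTR11B replicate 2, range -0.04 to 0.40) and DLX2 (-0.02 without rhTR11B replicate 2 and -0.01 without PBS replicate 1, range -0.02 to 0.17).

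Over all genes edgeR called 488, 396 higher and 92 lower. The number was 1107 with the DESeq2 Wald test, 1423 with no low-count filter, 231 with a mean of at least 5 CPM, 83 with limma-trend on FPKM values and a pseudocount of 1, 86 with a pseudocount of 0.1, and 0 with limma-trend and no filter on FPKM, with 3073 at an unadjusted p under 0.05. Leaving out single libraries gave 12 calls (without PBS replicate 3) to 1330 calls (without rhTR11B replicate 1), among them 23 without PBS replicate 2 and 282 without PBS replicate 1. The share of higher calls was 68.7% with DESeq2, 66.1% without a count filter and 81.1% in the edgeR fit reported. Of the pathway list genes 5 were called. There were 10 of 90 with DESeq2 and 16 of 112 with no low-count filter. Over all genes these fits called smaller shares, 1107 of 13567 and 1423 of 19876. Limma-trend called 1 of 74 list genes with either pseudocount, and 0 of 112 with no filter on FPKM (17 at an unadjusted p under 0.05). With 1 library left out the number ran from 0, without PBS replicate 2 or PBS replicate 3 (20 and 19 at an unadjusted p under 0.05), to 11 without rhTR11B replicate 1, with 3 without PBS replicate 1. The cause of these shifts was not tested.

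With the replicate number as a block edgeR called 1026 of 13567 genes and 14 of 90 pathway list genes, the larger share. Same-numbered libraries had correlations of -0.105, 0.0506 and -0.00666 in their deviations from the group means. Differently numbered libraries had -0.103 to 0.115. These values show no pairing by number, but with 3 libraries per group they cannot exclude it, and the labels do not state any pairing.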
